A study of Danio rerio with 12 samples.

Results

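The stathmin genes stmn1a, stmn1b, stmn2a, stmn2b, stmn3 and stmn4, and the axon growth and neuronal markers gap43, elavl3 and elavl4, were followed across 12 zebrafish libraries. They were chosen by name, as 9 genes of which 8 had a row in both deposited tables, among 32674 rows in all. No row carried the symbol gap43 or its Ensembl identifier, so that gene was not analysed here. The 8 genes all exceeded the minimum mean of 10 scaled counts that 18390 genes passed for testing.

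Each library held 5 pooled whole embryos, all EK strain, aged 5 days after fertilisation. Their parents had received food with 0 ppm (control), 1 ppm, 3 ppm or 10 ppm methylmercury (MeHg) from start to end of their lives, so the embryos are the F1 generation and the control parents were unexposed. There were 3 libraries for each diet. Nothing in the labels says whether pools of 1 diet had separate parents or clutches. The p-values therefore measure the spread between pools, which may not be the spread between families. Because whole embryos were pooled, fewer neurons and less RNA for each neuron cannot be told apart.

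Stathmins are small phosphoproteins that bind tubulin dimers, promote the disassembly of microtubules and are switched off by phosphorylation. Stathmin 1 is cytosolic and is best known, in mammals, from dividing cells and developing neurons, whereas stathmins 2, 3 and 4 are neuronal, attach to membranes and act in growing axons. The elavl3 and elavl4 genes encode RNA-binding proteins (HuC and HuD) that appear when neurons leave the cell cycle, and zebrafish elavl3 is a standard marker of all neurons. Axons extend by assembling and remodelling microtubules, and neuronal stathmins are widely used as markers of axon growth. Zebrafish carry duplicated copies, marked a and b, of several of them.

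Values are deposited fragment counts scaled by a size factor for each library (scaled counts), and FPKM, fragment values corrected for transcript length and depth, which are used wherever levels of different genes are compared. Depth recovered from the values was 5.63 to 11.8 M (mega) fragments in a library. The 8 genes rested on 155 (stmn3) to 5334 (stmn1b) fragments in a library, and each recovered value was a whole number of fragments within 0.02 steps in all 12 libraries. How fragments that match both copies of a pair were counted is not given in the sources used here, so values of close copies are uncertain to that extent.

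Libraries of 1 diet differed in clock state, which touches every comparison with control. The clock repressor gene per1b had 864 and 721 scaled counts in control libraries 2 and 3 and 549 and 549.9 in 1 ppm libraries 2 and 3, but 49.4 to 78.6 in the other 8. A clock score (the first principal component of 33 clock genes, 88.3% of their variance) was 6.23 to 9.83 in those 4 libraries and -5.40 to -3.36 in the others. All 3 ppm and 10 ppm libraries therefore shared the low state with 1 control and 1 library of 1 ppm only, so diet and clock state could not be fully told apart.

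In controls the order of levels was led by stmn1b, with 459 ± 45.7 FPKM (SD, n = 3). The next genes were stmn1a with 105 ± 18.9 and stmn2a with 102 ± 1.47 FPKM, whose ranges overlapped, and stmn4 with 86.2 ± 8.25 FPKM, which overlapped stmn1a but not stmn2a. The markers elavl3 and elavl4 followed with 69.1 ± 7.65 and 55.2 ± 5.41 FPKM and did not overlap each other. The gene stmn2b had 48.0 ± 1.75 FPKM, which touched the range of elavl4 at its edge, and stmn3 was lowest with 13.3 ± 1.91 FPKM. Of the FPKM summed over the 6 stathmin genes, stmn1b made up 56.3 ± 2.49% in controls and stmn3 1.63 ± 0.18%.

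Summed over the 6 stathmins, FPKM ran from 774 to 871 in controls and from 816 to 868 at 1 ppm. At 3 ppm it ran from 566 to 607, and at 10 ppm from 663 to 869.9. The 3 ppm libraries were thus the lowest 3 of the 12, and those of 10 ppm spread from near them to the control level. The share of stmn1b in the sum was 54.9 ± 3.42% at 1 ppm, 51.8 ± 4.38% at 3 ppm and 54.7 ± 4.07% at 10 ppm, and its ranges overlapped between all 4 diets. The share of stmn2b, in contrast, was 5.59 to 6.37% in controls and 7.22 to 7.65% at 3 ppm, without overlap, and 5.38 to 7.40% at 10 ppm. That of stmn2a was also higher at 3 ppm without overlap (11.9 to 13.3% in controls, 13.5 to 15.1% at 3 ppm). The share of stmn4 was higher at 10 ppm without overlap (10.3 to 10.97% in controls, 11.4 to 12.8%). All other shares overlapped with control at 1, 3 and 10 ppm. These shares were picked out after the values had been seen, were not tested, and have no share over all genes beside them. Shares of 1 sum are also tied, so that a fall in 1 gene raises the shares of the others. A share can rise while the gene falls: the mean of stmn2b was 48.0 FPKM in controls and 43.96 FPKM at 3 ppm.

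**Figure D1:**
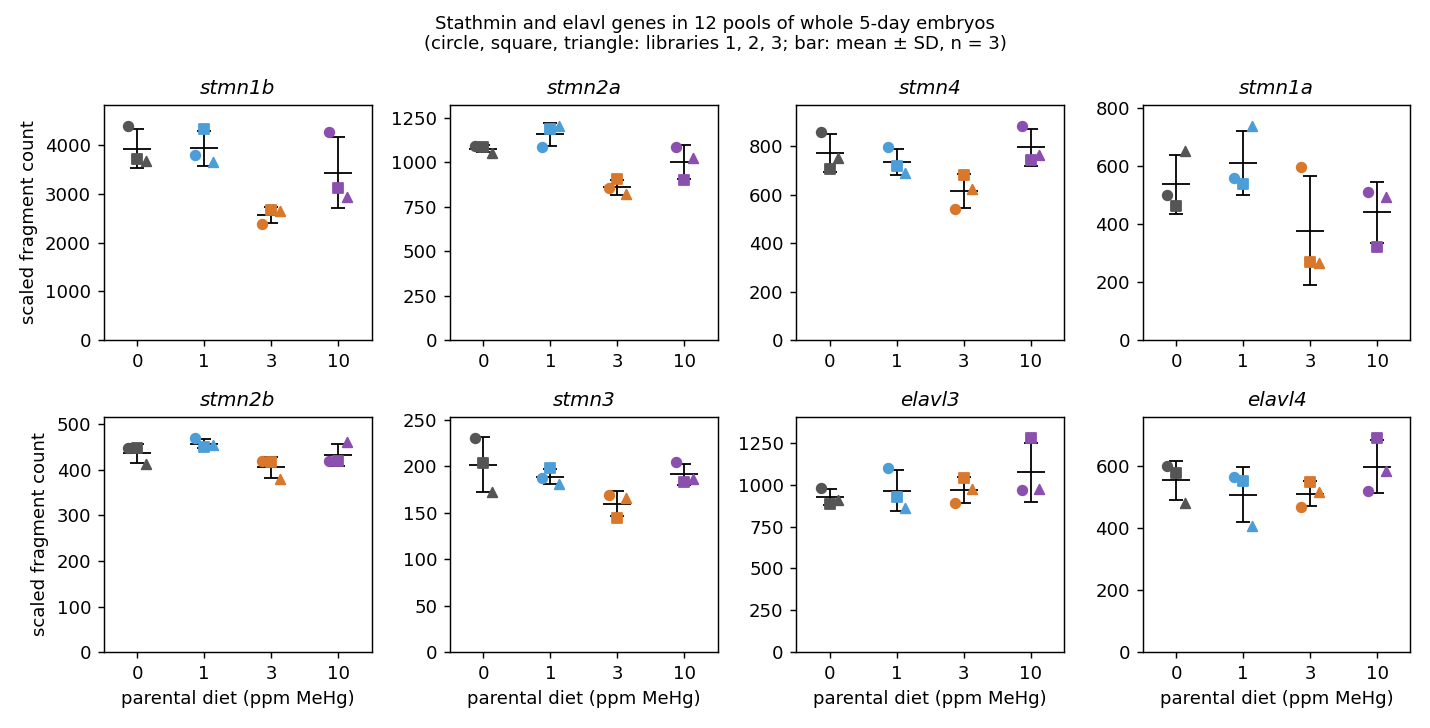
Scaled counts (y axis, from 0) of the 8 genes against the methylmercury content of the parental diet (x axis, ppm); points are libraries and bars the mean ± SD of 3. At 3 ppm stmn1b lies between 2378 and 2671, below every library of the other diets, whereas elavl3 and elavl4 overlap between all diets.

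The comparison of 3 ppm with control asked whether these genes differed in offspring of fish on the middle diet. All 6 stathmins had lower fitted values than control, 4 of them with groups that did not overlap, while elavl3 and elavl4 overlapped with control. No member passed limma's test adjusted over all genes (0 of 8, beside 0.0163% of all genes), and the smallest adjusted p among them was 0.382. With an unadjusted p under 0.05 there were 4 lower members of 8 (stmn1b, stmn2a, stmn3 and stmn4), beside 5.86% of all genes, and 0 higher, beside 4.54%. Without control library 1, 2 members had an unadjusted p under 0.05 in either direction, beside 2836 of 18390 genes. With all libraries 1912 genes did. The libraries of the same 4 members lay below control without overlap, as in 9.45% of genes; 0 members lay above it without overlap, beside 8.27% of genes. The median log2 difference was -0.33 over the 6 stathmins and -0.33 over the 8 members, against -0.0041 over all genes tested, where 50.6% were lower. Members share libraries and, in part, cells, so these counts are not 8 separate observations. The summed FPKM of the neuron marker list was also lower at 3 ppm, 563 to 689.9 against 703 to 862 in controls, and its part in the stathmin values was not tested.

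The most abundant stathmin gene, stmn1b (ENSDARG00000033655), had 4399, 3730.3 and 3676 scaled counts in control libraries 1 to 3. At 3 ppm it had 2378, 2671 and 2651. All 3 ppm libraries lay below all controls, with no overlap. The log2 difference was -0.61 (SE 0.15), a difference of -34.6%, with an unadjusted p of 0.00106 and a limma adjusted p of 0.382. With library weights in limma stmn1b passed (adjusted p = 0.0486), in a fit that called 238 genes in all; over the other alternatives its adjusted p reached 0.899.

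Control library 1 and 1 ppm library 1, whose clock scores were low like those at 3 ppm, had 4399 and 3806 scaled counts of stmn1b, above all 3 ppm libraries. When the clock score was a covariate, the log2 difference of stmn1b at 3 ppm was -0.72 (SE 0.19, limma adjusted p = 0.899), and without the 4 libraries of high clock score it was -0.78 (SE 0.23, adjusted p = 0.718). The second of these leaves 1 control and 1 library of 1 ppm, which are assumed to vary like the other libraries.

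The neuronal stathmins showed the same direction at smaller size. The gene stmn2a, encoding the membrane-bound stathmin of growing axons, had 1089.5, 1087 and 1053 scaled counts in controls and 853, 904 and 820.3 at 3 ppm. Groups did not overlap, the log2 difference was -0.33 (SE 0.11), and the limma adjusted p was 0.403. Its copy stmn2b had 448, 448 and 412 in controls and 419, 417 and 379.7 at 3 ppm, where the ranges overlapped. Its log2 difference was -0.11 (SE 0.10; limma adjusted p = 0.713). The ratio of stmn2a to stmn2b in FPKM was 2.09 to 2.19 in controls and 1.79 to 1.97 at 3 ppm. At 1 ppm it was 1.97 to 2.26 and at 10 ppm 1.88 to 2.22. Both ranges overlapped with that at 3 ppm, the range of 1 ppm only at its edge. In scaled counts the ratio was 2.31 to 2.65 at 1 ppm and 2.04 to 2.17 at 3 ppm, without overlap. At 10 ppm it was 2.15 to 2.59 in scaled counts, which overlapped with 3 ppm. The ratio was not tested.

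The gene stmn4, another membrane-bound neuronal stathmin, had 856, 706 and 751 scaled counts in controls and 539.5, 679 and 624 at 3 ppm, with no overlap and a log2 difference of -0.33 (SE 0.13; limma adjusted p = 0.437). The gene stmn3 had 230.2, 204 and 172 in controls and 169, 144 and 166 at 3 ppm, again without overlap and with a log2 difference of -0.33 (SE 0.13; limma adjusted p = 0.438). For stmn3 the gap between the nearest libraries of the groups was narrow, 172 against 169. The further copy stmn4l was no member and was looked at because of its name. It had a log2 difference of -0.26 (SE 0.13; limma adjusted p = 0.502) with overlapping groups.

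Against all 9 libraries of the other diets, 3 members lay lower at 3 ppm without overlap (stmn1b, stmn3 and stmn4), beside 1.79% of all genes tested, and 0 lay higher, beside 1.04%. The mean at 3 ppm was the lowest of the 4 diets for 6 of 8 members, which were the 6 stathmins, beside 30.7% of all genes. Both rules were set after the values had been seen.

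**Figure D2:**
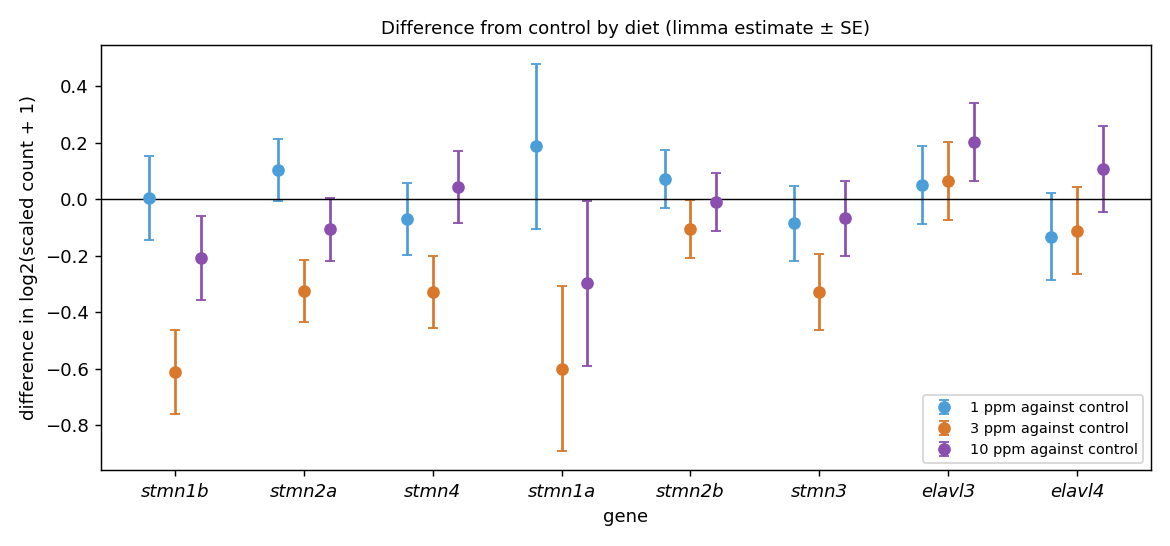
Difference from control in log2(scaled count + 1) (y axis) for each gene (x axis) at 1, 3 and 10 ppm; points are limma estimates and bars their SE. The 6 stathmins lie below 0 at 3 ppm, from -0.61 for stmn1b to -0.11 for stmn2b, while elavl3 is at 0.06 and elavl4 at -0.11.

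The gene stmn1a (ENSDARG00000004169) varied most within diets. It had 499.95, 461 and 652 scaled counts in controls, 559.6, 537 and 738 at 1 ppm, 596, 271 and 267 at 3 ppm, and 509.99, 319.7 and 494 at 10 ppm. Libraries 2 and 3 of 3 ppm and library 2 of 10 ppm were therefore low, and 3 ppm library 1 stood within the control range. The log2 difference at 3 ppm was -0.60 (SE 0.29; limma adjusted p = 0.493), beside an SE of 0.15 for stmn1b. It was -0.98 without 3 ppm library 1 (adjusted p = 0.456) and -0.41 and -0.40 without libraries 2 and 3, so it rests on which library is counted. Over the 12 libraries the SD of its log2 values was 0.48, larger than for 85.8% of genes tested, whereas that of stmn2b was 0.09, larger than for 0.756%.

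The neuronal RNA-binding markers overlapped between diets, as stmn2b did between 3 ppm and control; no test compared them with the stathmins. The marker elavl3 (ENSDARG00000014420) had 981, 885 and 911 scaled counts in controls, 1099.6, 928 and 861 at 1 ppm, 887, 1042 and 974 at 3 ppm, and 967, 1277 and 976 at 10 ppm. Every diet overlapped with every other. Its log2 difference was 0.05 at 1 ppm, 0.06 at 3 ppm and 0.20 at 10 ppm (SE 0.14; limma adjusted p = 1.00, 0.889 and 0.856). The marker elavl4 (ENSDARG00000045639) had 602, 578 and 483 in controls, 566, 553 and 407 at 1 ppm, 469, 549 and 517 at 3 ppm, and 519.9, 690.4 and 584 at 10 ppm. Log2 differences were -0.13, -0.11 and 0.11 (SE 0.15; limma adjusted p = 1.00, 0.807 and 0.912), and the diets overlapped here too. At 3 ppm both markers depended on the libraries: elavl4 had -0.30 and elavl3 -0.09 when the clock score was a covariate, and -0.24 and -0.02 without the 4 libraries of high clock score. Leaving out 1 library, elavl4 had -0.21 without control library 3, -0.05 without control library 1 and -0.05 without 3 ppm library 1. In the same way elavl3 had 0.11 without control library 1, 0.03 without control library 2, 0.12 without 3 ppm library 1 and 0.01 without 3 ppm library 2.

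Within a library, the ratio of stmn1b to elavl3 in FPKM was 6.56, 6.72 and 6.65 in controls and 5.71, 7.19 and 7.49 at 1 ppm. It was 4.395, 3.999 and 4.21 at 3 ppm and 7.31, 3.63 and 4.60 at 10 ppm. All 3 ppm libraries were below all those of control and 1 ppm, and 10 ppm libraries lay on both sides. The ratio of elavl4 to elavl3 was between 0.697 and 0.874 in all 12 libraries. It was 0.764, 0.874 and 0.766 in controls and 0.753, 0.704 and 0.718 at 3 ppm, without overlap. Its ranges at 1 ppm and 10 ppm overlapped with both. In scaled counts the ranges of this ratio in controls and at 3 ppm overlapped at their edge. These ratios were chosen after the values had been seen and are given without a test.

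At 1 ppm the fitted differences from control were small. Log2 differences ran from -0.13 (elavl4) to 0.19 (stmn1a), with 0.00 for stmn1b, 0.10 for stmn2a, 0.07 for stmn2b, -0.09 for stmn3 and -0.07 for stmn4. None of the 8 passed (smallest limma adjusted p = 1.00), beside 0% of all genes, and 0 had an unadjusted p under 0.05, beside 1.13% of genes lower and 0.837% higher. The voom version of limma on recovered fragments also called 0 members. Scaled counts of stmn1b at this diet were 3806, 4337 and 3670.3. Those of stmn2a were 1083, 1185 and 1203 and those of stmn2b 469, 450.3 and 454. The libraries of stmn2b did not overlap with control and were higher, 1 of 8 members beside 3.26% of genes, and 0 members were lower without overlap, beside 2.77%. Those of stmn4 were 795, 717 and 689 and those of stmn3 188, 198 and 181.

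At 10 ppm against control 0 of 8 members passed, beside 0% of all genes, and 0 had an unadjusted p under 0.05, beside 2.82% of genes lower and 2.89% higher. No member was without overlap, beside 4.81% of genes lower and 5.55% higher. The gene stmn1b had 4282, 3116 and 2933 scaled counts, so library 1 was at the upper end of the controls and the other 2 were below all of them. Its log2 difference was -0.21 (SE 0.15; limma adjusted p = 0.856), and rests on single libraries. It was -0.38 without 10 ppm library 1, -0.10 without 10 ppm library 3 and -0.13 without control library 1. Without the 4 libraries of high clock score it was -0.37. In the fit without 10 ppm library 1, 1 member had an unadjusted p under 0.05, beside 1323 of 18390 genes in either direction. The gene stmn2a had 1086, 899 and 1021 (log2 difference -0.11), stmn2b 419, 419 and 461 (-0.01), stmn3 204, 183 and 187 (-0.07) and stmn4 882, 741 and 761 (0.04). The log2 difference of stmn1a was -0.30, but -0.08 without 10 ppm library 2 and -0.15 without control library 3. The voom version of limma called 0 members as well.

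Between exposed diets the 3 ppm libraries were again the low ones. Against 1 ppm, all 6 stathmins had lower fitted values. Log2 differences were -0.79 for stmn1a, -0.62 for stmn1b, -0.43 for stmn2a, -0.26 for stmn4, -0.24 for stmn3 and -0.18 for stmn2b. None of the 8 members passed (smallest limma adjusted p = 0.239), beside 0.0163% of genes. With an unadjusted p under 0.05 there were 3 lower members (stmn1a, stmn1b and stmn2a), beside 7.85% of genes, and 0 higher, beside 7.92%. Without the 4 libraries of high clock score 1 library of 1 ppm is left, and no count is given for that fit. Without 1 ppm library 3, 2 members had an unadjusted p under 0.05 in either direction, beside 1732 of 18390 genes. Groups did not overlap for 5 members, stmn1b, stmn2a, stmn2b, stmn3 and stmn4, beside 11.2% of genes in that direction, and for 0 members in the other, beside 10.6%. The controls and the 1 ppm libraries are separate samples, but both comparisons use the same 3 ppm libraries.

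The 10 ppm and 3 ppm libraries all had the low clock score, so this comparison is within 1 clock state. Log2 differences of 10 ppm against 3 ppm were 0.41 (SE 0.15) for stmn1b, 0.37 (SE 0.13) for stmn4, 0.30 for stmn1a, 0.26 for stmn3, 0.22 for stmn2a and elavl4, 0.14 for elavl3 and 0.10 for stmn2b. No member passed (limma adjusted p = 1.00 for each), beside 0.0163% of genes. Unadjusted p was under 0.05 for 2 higher members, stmn1b and stmn4, beside 2.65% of genes, and for 0 lower, beside 1.12%. Without 10 ppm library 1, 0 members had an unadjusted p under 0.05 in either direction, beside 434 of 18390 genes, and stmn1b had 0.24. Without 3 ppm library 1 there was 1 such member, beside 657 genes. Libraries did not overlap for stmn1b, stmn3 and stmn4, which were higher at 10 ppm, 3 of 8 members beside 6.54% of genes, and for 0 that were lower, beside 4.42%. For these 3 genes the mean level was lowest at 3 ppm, and that at 10 ppm was nearer to control. Between 10 ppm and 1 ppm 0 of 8 members passed, beside 0% of genes. An unadjusted p under 0.05 was found for 0 members, beside 3.22% of genes lower and 4.86% higher. Without 10 ppm library 1 it was found for 2 members, beside 2153 of 18390 genes in either direction. Only stmn1a was without overlap, lower at 10 ppm (1 of 8 members, beside 6.41% of genes lower and 6.37% higher).

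In limma's F-test of any difference among diets 0 of 8 members passed, beside 0.0163% of all genes, and 3 had an unadjusted p under 0.05 (stmn1b, stmn2a and stmn4), beside 8.59% of genes. For stmn1b F was 7.59, with an unadjusted p of 0.00306 and a limma adjusted p of 0.483. A slope over the ranks of the diets passed for 0 of 8, beside 0.0218% of genes, and unadjusted p was under 0.05 for 0 members, beside 5.24% of genes lower and 5.07% higher. It was -0.12 (SE 0.06) on the log2 scale for each diet step in stmn1b (limma adjusted p = 0.503). Over the alternatives other than leaving out 1 library, the slope of stmn1b ran from -0.13 to -0.02. When the clock score was a covariate, the smallest limma adjusted p among members was 0.9999 for the slope and 0.984 for the F-test. Without 10 ppm library 1 the slope of stmn1b was -0.19 (limma adjusted p = 0.262). In that fit 2 members had an unadjusted p under 0.05, beside 2630 of 18390 genes in either direction. Leaving out any 1 library, the limma adjusted p of stmn1b ran from 0.262 to 0.810.

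**Figure D3:**
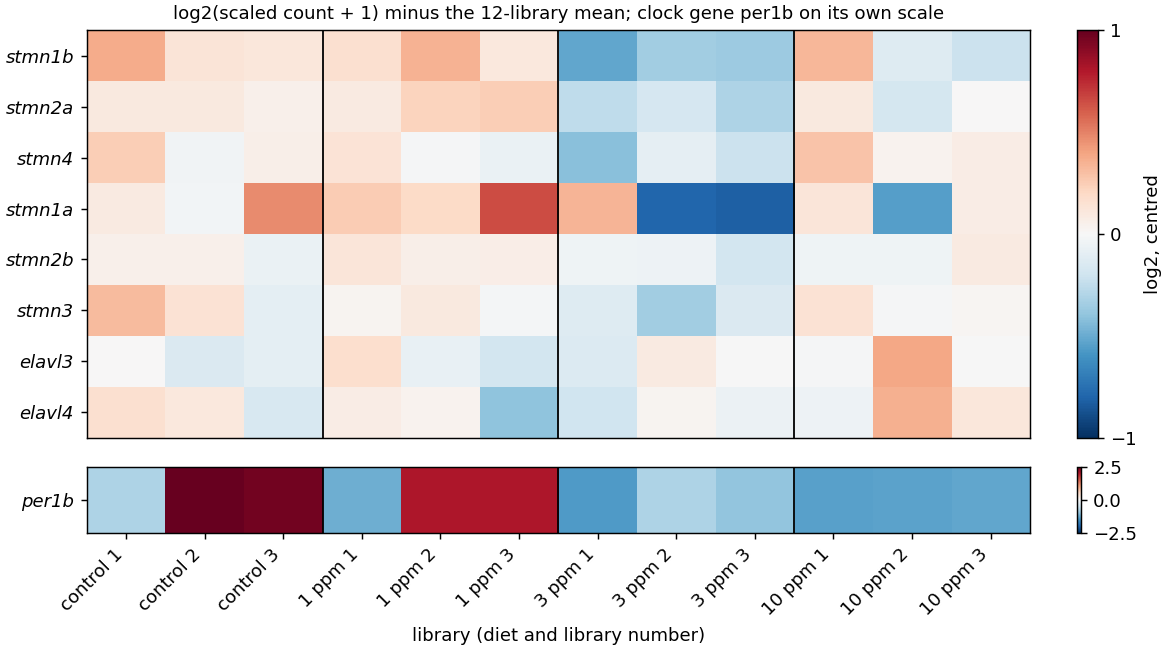
Centred log2(scaled count + 1) of the 8 genes (rows) in the 12 libraries (columns, grouped by diet), with the clock gene per1b on its own colour scale. The 3 ppm columns are below the mean (blue) for stmn1b, stmn2a, stmn3 and stmn4, and slightly so for stmn2b (-0.04, -0.05 and -0.19). The gene per1b separates control and 1 ppm libraries 2 and 3 from the other 8.

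Likeness over the 12 libraries was measured as the root mean square difference of centred log2 values, where a smaller number means closer values. The measure takes in the size of the variation as well as its direction, so genes that vary little lie near each other. It is a description, and all genes share the same libraries. The closest member to elavl4 was elavl3 (0.12, rank 67 among all other genes), and elavl4 was the closest member to elavl3 (rank 108). For stmn1b the closest member was stmn2a (0.17, rank 140), and elavl3 stood at rank 6444. For stmn1a the closest member was stmn2a (0.36, rank 1632), and its copy stmn1b stood at rank 3526. Among members, stmn2b was nearest to stmn2a (0.13), stmn3 (0.14) and stmn4 (0.17). Then came elavl3 (0.18) and elavl4 (0.20), before stmn1b (0.26) and stmn1a (0.41). The members nearest to stmn4 were stmn3 (0.15), stmn2a (0.16) and stmn2b (0.17), and stmn4 was about as far from elavl3 (0.20) as from stmn1b (0.19). The SD of stmn2b was only 0.09, beside 0.30 for stmn1b, so its distances say little about direction. Whether stathmins and elavl genes rose and fell together was not tested.

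The 3 named genes of nearest pattern to stmn1a were suv39h1b (0.09), a histone H3 methyltransferase gene, and fen1 and lig1 (0.15 each), which encode a nuclease and a ligase of DNA replication. Scaled counts of fen1 were 121, 125 and 157 in controls, 144, 81.2 and 68.3 at 3 ppm, and 114, 70.2 and 121 at 10 ppm. These genes were chosen for their likeness to stmn1a in the same libraries, so that a shared order is no separate observation. Nearest to stmn1b were reep2 (0.08), a gene of endoplasmic reticulum shaping in neurons, camk4 (0.10), a calcium and calmodulin-dependent kinase gene, and cbx1b (0.10), a heterochromatin protein gene. The kinase encoded by camk4 is known to phosphorylate stathmin in mammals. Counts of reep2 were 266, 254 and 242 in controls against 140.04, 184 and 184 at 3 ppm.

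Nearest to stmn4 were gng3 (0.08), a neuronal G protein subunit gene, si:dkey-46a10.3 (0.08) and ttyh3b (0.09), a gene of the tweety family. Nearest to stmn2a were golga7, arpc4l and calm3a, to stmn2b coro1cb, mgaa and mlf2, and to stmn3 sbds, dtnbp1a and fgfr1op, at 0.05 to 0.08. The genes nearest to elavl3 were vapb, si:ch211-214c7.4 and runx1t1, and those nearest to elavl4 were apba2b, hdlbpb and kidins220b, at 0.06 to 0.09.

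**Figure D4:**
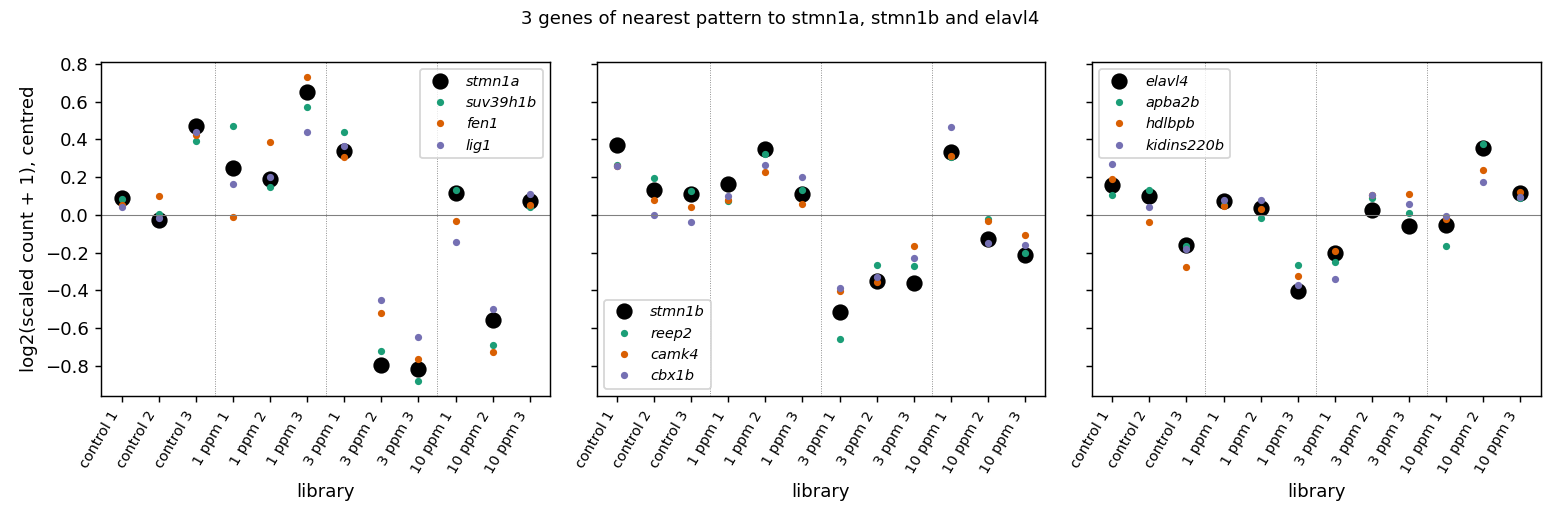
Centred log2(scaled count + 1) (y axis) in each library (x axis) of stmn1a, stmn1b and elavl4 (black) and the 3 named genes of nearest pattern to each (colours). The replication genes fen1 and lig1 are low with stmn1a in 3 ppm libraries 2 and 3 and 10 ppm library 2, and reep2 is low with stmn1b in all 3 ppm libraries.

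Other genes of axons, microtubules and neurons were taken from lists of related genes, without the members. No gene of any of these lists passed limma's test against control at 1, 3 or 10 ppm, beside 0%, 0.0163% and 0% of all genes. Of all genes tested, 51.8%, 50.6% and 47.5% were lower than control at 1, 3 and 10 ppm. Genes of a list share libraries and, in part, cells, so counts of direction are not separate observations. At 3 ppm the mature neuron list (transmitter enzymes, vesicle proteins, receptors and channels) stood lowest: 35 of 45 tested genes were lower, with a median log2 difference of -0.26 against -0.0041 over all genes, and 18 had an unadjusted p under 0.05, all lower, beside 5.86% of genes. Its smallest p belonged to slc32a1, the vesicular transporter of inhibitory transmitters (486 ± 22.2 in controls, 299 ± 46.2 at 3 ppm; SD, n = 3; log2 difference -0.71, limma adjusted p = 0.352), sypb, a synaptophysin gene (-0.44), and gad1b, a GABA synthesis gene (-0.74). At 10 ppm the median was -0.03, with 28 of 45 lower; sv2ba had -0.39, atp1b2b -0.41 and slc32a1 -0.35.

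Of the microtubule list 47 genes were tested, and 28 were lower at 3 ppm (median -0.09). The smallest p belonged to dpysl5b, of a family of tubulin-binding growth cone proteins, with 725 ± 82.1 scaled counts in controls and 484 ± 54.1 at 3 ppm (SD, n = 3; log2 difference -0.58; limma adjusted p = 0.382). It was followed by map7a, a microtubule-associated protein gene (-0.74), and the alpha-tubulin gene tuba2 (-0.29). At 10 ppm 26 were lower (median -0.02), and the gamma-tubulin gene tubg1 had -0.26, tuba1c -0.25 and the microtubule-severing katna1 -0.50. At 1 ppm the median was -0.02.

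The growth cone and axon list had 33 of 67 tested genes lower at 3 ppm, with a median of 0.00. The smallest p belonged to fez1, a kinesin adaptor gene of axon outgrowth (-0.37; limma adjusted p = 0.396), robo1, a Slit receptor gene (0.41), and gng2 (-0.31). At 10 ppm 53 of 67 were higher (median 0.09, against 0.01 over all genes), and marcksa had 0.39, robo1 0.29 and the ephrin receptor gene epha4a 0.24. At 1 ppm 41 of 67 were lower (median -0.04).

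The list of kinases, calcium signalling genes and other partners of stathmins or gap43 had a median of 0.02 at 3 ppm, with 21 of 45 lower. An unadjusted p under 0.05 was found for 8 lower, beside 5.86% of genes, and 1 higher, beside 4.54%. The 45 count 5 separate rows of the symbol calm3a, at -0.34 to -0.28. The protein kinase A subunit gene prkacbb had 155 ± 17.8 in controls, 36.8 ± 24.4 at 3 ppm and 60.03 ± 19.95 at 10 ppm (SD, n = 3; log2 differences -2.32 and -1.40; limma adjusted p = 0.352 and 0.756). Next at 3 ppm were camk4 (-0.44) and the calmodulin gene calm3a (-0.34), and at 10 ppm mapk9, a JNK gene (0.45), and cdk5 (0.54). Controls of cdk5 varied widely, with 90.72 ± 50.23 scaled counts, beside 122.5 ± 27.31 at 10 ppm (SD, n = 3). The median at 10 ppm was 0.05.

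Neuronal transcription factors had 26 of 36 tested genes lower at 3 ppm (median -0.12) and 22 lower at 10 ppm (median -0.06). The smallest p at 3 ppm belonged to lhx1a (-0.53), the motor and sensory neuron gene isl1 (-0.35) and neurod1 (0.83). At 10 ppm it belonged to isl1 (-0.37), neurod1 (0.71) and ascl1a (-0.39). The limma adjusted p of these genes was 0.396 or more. Controls of neurod1 varied widely, with 1446 ± 859.6 scaled counts, beside 2319 ± 185.3 at 3 ppm and 2137 ± 233.9 at 10 ppm (SD, n = 3). RNA-binding proteins had a median of -0.07 at 3 ppm (17 of 28 lower) and 0.04 at 10 ppm, where fus, tardbp and igf2bp1 had 0.89, 0.17 and 0.28. At 3 ppm fus had 0.60, msi2a -0.44 and rbfox1 -0.23.

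Progenitor and cell cycle genes had 28 of 36 tested genes higher at 1 ppm (median 0.20) and medians of -0.02 at 3 ppm and 0.06 at 10 ppm. The replication helicase genes mcm3, mcm4 and mcm5 were among those of smallest p, with -1.55 for mcm3 at 3 ppm and -1.20, -0.93 and -1.08 at 10 ppm (limma adjusted p = 0.396 and 0.822 for mcm3). Controls of mcm3 varied widely, with 83.42 ± 55.4 scaled counts, beside 23.56 ± 7.025 at 3 ppm (SD, n = 3). At 3 ppm notch1b had 0.46 and vim 0.25. The list was divided at this diet, with 19 of 36 genes lower and 17 higher. There mcm5 and mcm6 had -0.79 and -0.77, whereas bub1, top2a and plk1 had 0.63, 0.49 and 0.46.

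**Figure D5:**
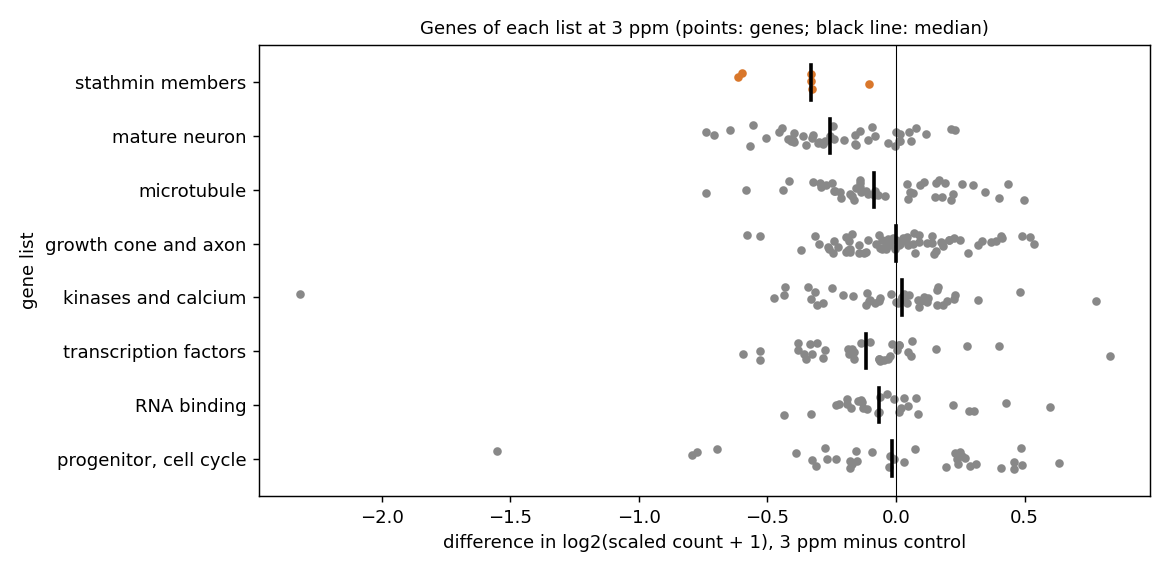
Difference between 3 ppm and control in log2(scaled count + 1) (x axis) for the genes of each list (rows); points are genes and black lines medians. The median is -0.33 for the stathmin members, -0.26 for mature neuron genes, -0.09 for microtubule genes and 0.00 for growth cone and axon genes.

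Cell type markers were checked beside these values, as FPKM summed over each list. The neuron list (8 of 9 genes with a row, among them elavl3 and elavl4) was 703 to 862 in controls, 689 to 875 at 1 ppm, 563 to 689.9 at 3 ppm and 719 to 824 at 10 ppm, so that the 3 ppm libraries did not overlap with control. The glia and myelin list was 959 to 1091 in controls and 796 to 1092 at 3 ppm, and muscle 34948 to 50130 and 36696 to 50104, each overlapping. Liver was 4373 to 4599 and 4408 to 6327, photoreceptors 5040.3 to 7564 and 6703 to 7698, lens 3542 to 5615 and 3891 to 4723, and exocrine pancreas 9433 to 28445 and 14744 to 28585. No marker with a row was listed at 0 in all libraries. The part that the makeup of the embryos had in the stathmin values was not tested.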

How the data were processed

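RNA of 12 libraries was sequenced as paired reads of 100 bases after TruSeq preparation, per the labels' protocols. The submitters' processing notes list CASAVA 1.8.2, cutadapt, FastQC, TopHat, Cuffnorm and genome build Zv9, without settings. The count table was deposited as a scaled signal: in each library a smallest step was found of which 98.1 to 98.6% of the nonzero values were multiples (tolerance 0.02 steps), and dividing by it gave the depth. The FPKM were computed by the authors.

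The members, lists, tests and alternatives were chosen with earlier results of these data known. limma 3.58.1 (R 4.3.3; trend and robust moderation, all 12 libraries in 1 fit) was run on log2(value + 1) of the deposited scaled counts of 18390 genes with a mean of at least 10. Fold changes are on that log2 scale, which understates changes of low genes. Each test was two-sided, and p was adjusted by Benjamini-Hochberg over all genes at a threshold of 0.05. The fit was tested on simulated data. Named beside the members were the 3 genes of nearest pattern to each and, in each list, the 3 genes of smallest p at 3 and at 10 ppm. Alternatives were another scaling, filters, pseudocounts, FPKM, limma-voom on recovered fragments, library weights, blocking on replicate number, the compared groups alone, other dose scales, the clock score, and leaving out libraries. Python 3.11.15, pandas 2.3.3 and matplotlib 3.10.9 were used.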

Additional observations from a re-analysis of the deposited data

How the results depend on the processing

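The number of members passing was 0 of 8 in every comparison under every alternative run, except that 1 (stmn1b, lower) passed at 3 ppm against control with library weights. The 6 stathmins had a lower value at 3 ppm than control under each alternative and without any 1 library, with stmn1b between -0.78 and -0.53. The planned TMM scaling and the edgeR and DESeq2 tests were not run, because a few fractional values kept the table from being taken as counts throughout; limma-voom on the recovered fragments was run.

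Genes called in all at 3 ppm numbered 3, but 238 with library weights, 17 without control replicate 1, 6 when the clock score was a covariate and 7 without the 4 libraries of high clock score. At 10 ppm they numbered 0, but 41 without control replicate 1, 38 with library weights and 1 with FPKM. Between 3 and 1 ppm they numbered 3, but 6 without 3 ppm replicate 1. Between 10 and 3 ppm they numbered 3, but 5 without 3 ppm replicate 1, in the compared groups alone or without those 4 libraries. Between 10 and 1 ppm they numbered 0, but 3 with library weights or without 3 ppm replicate 3 and 1 without 3 ppm replicate 1. The F-test gave 3, but 14 with library weights, 9 without control replicate 1, 7 without 3 ppm replicate 1 or those 4 libraries, and 5 without 3 ppm replicate 3. The trend gave 4, but 146 without control replicate 1, 101 with library weights, 1 with FPKM or the replicate block, and 0 with no filter, a minimum mean of 50, other dose scales, the clock score or without those 4 libraries; without another single library it gave 0 or 1.

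Directions turned for some differences from control, none of which passed. When the clock score was a covariate they were -0.012 for stmn1b at 1 ppm, -0.090 for elavl3 at 3 ppm, and -0.11 for stmn4 and -0.077 for elavl4 at 10 ppm. Without the 4 libraries of high clock score they were -0.21 for stmn1b and -0.0081 for stmn2a at 1 ppm, -0.022 for elavl3 at 3 ppm, and -0.11 for stmn4 and -0.019 for elavl4 at 10 ppm. With library weights stmn4 had 0.017 at 1 ppm and stmn2b 0.00999 at 10 ppm. At 1 ppm elavl3 had -0.0144 and -0.0141 with FPKM and pseudocounts of 0.1 and 1, and stmn1b -0.0039 with median-of-ratios scaling, which was added after seeing the data, and -0.0042 with limma-voom. Leaving out 1 library, ranges at 1 ppm were -0.069 to 0.085 for stmn1b, -0.049 to 0.13 for elavl3, -0.13 to 0.0082 for stmn4, -0.20 to 0.013 for stmn3 and -0.23 to 0.019 for elavl4. At 10 ppm they were -0.033 to 0.12 for stmn4, -0.057 to 0.012 for stmn2b, -0.18 to 0.030 for stmn3 and -0.0020 to 0.20 for elavl4. The cause was not tested.

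Libraries with the same number deviated together (correlation over 0.1) in 6 of 18 pairs, beside 11 of 36 pairs with other numbers. The largest correlations were between libraries 1 of control and 1 ppm (0.47) and libraries 3 of control and 1 ppm (0.44). Whether the numbers pair some of the samples cannot be told from these counts. With the replicate number as a block 0 members passed, and stmn1b at 3 ppm had a limma adjusted p of 0.358. With 155 to 328 fragments in a library, stmn3 is the member that depth limits most.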
